A study of Mus musculus with 32 samples.

Results

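The 9 genes described here encode the parts of the mouse major histocompatibility complex (MHC) class I molecule: 8 heavy chain genes (H2-K1, H2-D1, H2-Q4, H2-Q6, H2-Q7, H2-T22, H2-T23 and H2-M3) and B2m, which encodes the light chain β2-microglobulin. They are 9 of the 23035 genes in the ribosome footprint tables, and all 9 also have a row in the total RNA tables, which hold 39017 genes. The genes were chosen on their measured footprints, which rose mainly late after interferon-β (IFN-β), so their footprint changes at 2 h and 14 h are given as a description, without a test. Tests were run only on total RNA, which was not used to choose them, and on genes outside the group.

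Neural stem cells (NSCs) were cultured from the ventricular-subventricular zone of C57BL/6 mice aged 8 to 12 weeks and received IFN-β or vehicle, and were lysed after 2 h or 14 h. The labels name no genetic change in these cells, and every culture, vehicle included, received cycloheximide shortly before lysis to hold ribosomes in place. Each lysate gave a ribosome footprint library, in which reads protected by ribosomes were counted over coding sequence (CDS), and a total RNA library counted over the gene body. The 32 libraries formed 8 groups of 4 cultures, with replicates 2, 3, 5 and 6 at 2 h and replicates 1 to 4 at 14 h, and the labels do not say whether replicates 2 and 3 are the same cultures at both times. The cultures came from different mice according to the study's methods. The p-values of the main fits measure only the spread between these cultures and do not pair vehicle with IFN-β by replicate number.

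Footprint libraries held 2956297 to 10505108 counts and total RNA libraries 1370008 to 7877753. The footprints of replicate 3 at 2 h stood apart from the other 2 h cultures in both the vehicle and the IFN-β library, whose deviations from their group means correlated at 0.82 across genes. All 10 NSC marker genes were detected in footprints in each group. Of 12 leukocyte markers, 10, 8, 7 and 5 had no footprint in the vehicle 2 h, IFN-β 2 h, vehicle 14 h and IFN-β 14 h groups. Aif1, Cx3cr1, C1qa, C1qc and Tyrobp, which mark microglia and other myeloid cells, had none in any group. The list summed to 36.9 to 41.6 CPM (counts scaled to a TMM-adjusted library total of 1000000) in vehicle and 40.2 to 45.4 in IFN-β libraries at 14 h, nearly all of it on P2ry12 and Itgam. These markers moved in opposite directions at 14 h, P2ry12 from 5.57 to 8.28 CPM in vehicle to 20.4 to 26.0 CPM with IFN-β, and Itgam from 29.4 to 35.6 CPM to 17.5 to 20.7 CPM. Its sums at 2 h were 11.9 to 34.5 and 15.9 to 38.5 CPM. Of 6 endothelial markers, the sums were 9.07 to 10.3 CPM in vehicle and 11.7 to 13.9 CPM in IFN-β libraries at 14 h, against 4.47 to 12.0 and 7.15 to 25.2 CPM at 2 h. Total RNA gave another picture, with leukocyte markers summing to 402 to 817 CPM over all libraries and NSC markers to 106 to 277 CPM. There Cx3cr1, with no footprint, was at 139 to 594 CPM and Csf1r at 119 to 295 CPM. Sox2 had 0 total RNA counts in all libraries and 646 or more footprint counts in each. The strand setting used to count total RNA is not given in the sources used here. These total RNA marker levels therefore hold only for the counts as deposited and are not read as cell content. The part of these cell types in the results was not tested, and in bulk cultures a change in the number of cells of a type and a change in RNA per cell cannot be told apart.

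An MHC class I molecule carries a short peptide from inside the cell to its surface, where CD8 T cells or natural killer cells read it. A membrane-anchored heavy chain forms the groove that holds the peptide, and the small soluble light chain β2-microglobulin keeps the heavy chain folded. Peptides are cut by the proteasome, pumped into the endoplasmic reticulum by the transporter Tap1/Tap2 and loaded with the help of tapasin (Tapbp). H2-K1 and H2-D1 are the classical heavy chains, polymorphic and carried by most cells. H2-Q4, H2-Q6, H2-Q7, H2-T22, H2-T23 and H2-M3 are non-classical: H2-T23 encodes Qa-1, a ligand of NKG2 receptors, H2-Q7 encodes Qa-2, H2-T22 is a ligand of some γδ T cells, and H2-M3 presents peptides that begin with formylmethionine. In the brain, class I genes are low at rest and are known targets of interferon through the interferon-stimulated response element (ISRE) and the transactivator Nlrc5.

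The 8 heavy chain genes lie on chromosome 17 of GRCm38, from H2-K1 at chr17:33996017-34000347 on the minus strand to H2-M3 at chr17:37270220-37274484 on the plus strand. H2-D1 (35262730-35267499), H2-Q4 (35379617-35385290), H2-Q6 (35424850-35430055) and H2-Q7 (35439155-35443773) are on the plus strand of the same chromosome. H2-T23 (36029773-36032855) and H2-T22 (36037128-36042747) are neighbours on its minus strand. B2m lies apart, at chr2:122147686-122153083 on the plus strand. Their longest coding sequences run from 978 bases (H2-Q6) to 1137 bases (H2-T22) for the heavy chains and 357 bases for B2m.

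The heavy chains share long identical coding runs, so a footprint of about 33 bases can match several of them. The stretch shown here, read from the GRCm38 coding sequences, is the 60 bases of H2-K1 that the other 7 heavy chains match best. It is identical in 6 members, so footprints from it in those 6 cannot be assigned to 1 gene. Capitals mark the bases of H2-Q4 and H2-M3 that differ from H2-K1.
H2-K1 (coding bases 739 to 798), and likewise H2-D1, H2-Q6, H2-Q7, H2-T22 and H2-T23: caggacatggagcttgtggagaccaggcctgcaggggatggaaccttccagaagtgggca
H2-Q4 (coding bases 823 to 882): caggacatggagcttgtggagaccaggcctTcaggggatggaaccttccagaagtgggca
H2-M3 (coding bases 748 to 807): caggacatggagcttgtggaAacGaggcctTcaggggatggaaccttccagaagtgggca

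Over the whole coding sequence, 28.4% of the 33-base windows of H2-K1 also occur in the coding sequence of another gene, 38.6% of those of H2-D1, 36.1% of H2-Q4, 51.2% of H2-Q6, 70.3% of H2-Q7, 59.7% of H2-T22, 26.3% of H2-T23 and 5.64% of H2-M3. B2m shares no such window. H2-Q6 and H2-Q7 are the closest members, 95.4% identical with 1 unbroken run of 265 bases in common. H2-K1 and H2-D1 are 91.4% identical, with a common run of 91 bases. Of the windows of H2-T22, 49.0% are also in H2-T10, and of those of H2-Q7, 41.5% are also in H2-Q5, neither of them a member. Per the study's methods Bowtie ran with its standard options, under which a read that matches several places is reported at 1 of them. The levels of H2-Q6, H2-Q7 and H2-T22 are therefore the least certain as values of single genes. With 26-base windows the shares were higher, 39.1% for H2-K1 and 8.24% for H2-M3, while B2m still shared none. Only exact windows were counted, so the sharing of reads that match with mismatches is not measured here.

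The promoters are shown because regulatory elements of class I genes sit close to the start site. They are taken from RefSeq (GRCm38.p6), which held a promoter for all 9 members, and each line gives a stretch before the RefSeq start, on the gene's own strand, that opens shortly before the ISRE core. H2-D1 and H2-T23 are not printed, since GENCODE places their stretches inside the first exon. Capitals mark an ISRE core (GAAANNGAA or GAANNGAAA on either strand), the κB site GGGATTCCC, and TGACG followed by ATTGG with 5 to 30 bases between them.
H2-K1 (chr17:34000348-34000462, minus strand): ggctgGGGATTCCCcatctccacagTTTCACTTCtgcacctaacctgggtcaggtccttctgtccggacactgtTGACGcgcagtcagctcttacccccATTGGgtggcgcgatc
H2-Q4 (chr17:35379439-35379554, plus strand): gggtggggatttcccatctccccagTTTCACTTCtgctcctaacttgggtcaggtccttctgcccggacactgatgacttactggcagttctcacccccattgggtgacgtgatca
H2-Q6 (chr17:35424673-35424788, plus strand): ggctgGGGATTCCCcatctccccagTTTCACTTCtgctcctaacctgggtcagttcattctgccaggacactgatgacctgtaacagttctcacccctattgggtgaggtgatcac
H2-Q7 (chr17:35439017-35439132, plus strand): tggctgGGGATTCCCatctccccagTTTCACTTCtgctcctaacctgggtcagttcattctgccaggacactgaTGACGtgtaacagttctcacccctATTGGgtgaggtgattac
H2-T22 (chr17:36042842-36042957, minus strand): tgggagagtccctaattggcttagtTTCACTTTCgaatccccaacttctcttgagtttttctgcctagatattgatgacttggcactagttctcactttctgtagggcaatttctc
H2-M3 (chr17:37270108-37270223, plus strand): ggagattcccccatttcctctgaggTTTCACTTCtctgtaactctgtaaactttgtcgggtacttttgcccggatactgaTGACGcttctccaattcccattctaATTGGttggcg
B2m (chr2:122147523-122147638, plus strand): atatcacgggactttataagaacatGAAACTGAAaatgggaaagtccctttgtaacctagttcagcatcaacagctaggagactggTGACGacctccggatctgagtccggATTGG

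Windows of 250 bases before to 50 after the start were searched on both strands in all 32851 RefSeq promoters. GAAANNGAA was in 3 members (H2-T22, H2-T23 and B2m) and in 8.56% of all promoters. The form GAANNGAAA, added after the data were seen, was in the other 6 members and in 7.52% of all promoters. GGGATTCCC was in 4 members (H2-K1, H2-D1, H2-Q6 and H2-Q7) and in 0.353% of all promoters. TGACG was in 7 members and 20.8% of promoters, CCAAT in all 9 and 37.4%. TGACG followed by ATTGG was in 5 members (H2-K1, H2-D1, H2-Q7, H2-M3 and B2m) and in 0.840% of all promoters. In H2-D1 the κB letters begin at position −170 from the start, the ISRE core at −150 and TGACG at −101, and in H2-T23 the ISRE core begins at −123. A match is a description of the letters, not of a bound factor, and the heavy chain promoters share ancestry.

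B2m, the light chain, was the most abundant member in footprints in every group. Vehicle libraries at 2 h held 193, 282, 204 and 201 CPM for replicates 2, 3, 5 and 6, and the IFN-β libraries 592, 754, 546 and 486 CPM. After 14 h, vehicle libraries held 153, 162, 178 and 176 CPM for replicates 1 to 4, and the IFN-β libraries 3433, 3756, 3760 and 4271 CPM. Every IFN-β library was above every vehicle library at both times. The log2 change was 1.44 ± 0.17 (SE), or 2.70-fold, at 2 h and 4.50 ± 0.08, or 22.6-fold, at 14 h. B2m was thus already clearly higher at 2 h, and its later change was the second lowest of the 9.

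H2-K1 and H2-D1, the classical heavy chains, were the next most abundant members in both vehicle groups and were late. H2-K1 in vehicle at 2 h held 39.0, 57.6, 48.6 and 45.6 CPM, and with IFN-β 51.9, 61.7, 58.7 and 45.4 CPM. These groups overlapped, and the log2 change was 0.19 ± 0.14, the lowest of the 9 at that time. At 14 h, H2-K1 held 25.1, 25.2, 22.5 and 27.5 CPM in vehicle and 736, 748, 755 and 888 CPM with IFN-β. The groups were far apart, with a log2 change of 4.95 ± 0.09 or 30.9-fold.

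H2-D1 held 30.6, 50.0, 34.4 and 34.0 CPM in vehicle at 2 h against 49.4, 90.1, 50.4 and 50.4 CPM with IFN-β. Replicate 3 was the highest in both groups, and its vehicle value lay within the range of the IFN-β libraries. The log2 change at 2 h was 0.69 ± 0.23 (1.61-fold) and 0.43 without the IFN-β library of replicate 3. At 14 h, H2-D1 held 11.8, 16.9, 16.8 and 18.8 CPM in vehicle and 841, 915, 901 and 1056 CPM with IFN-β, a log2 change of 5.81 ± 0.12 or 56.3-fold.

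H2-Q4, a non-classical heavy chain, had the highest 2 h change of the group. Vehicle libraries at 2 h held 12.6, 15.1, 13.5 and 14.7 CPM and IFN-β libraries 57.5, 94.98, 66.7 and 51.1 CPM, with no overlap. The log2 change was 2.27 ± 0.19 or 4.83-fold. At 14 h it held 10.8, 10.7, 10.6 and 15.3 CPM in vehicle and 378, 417, 418 and 506 CPM with IFN-β, 35.7-fold higher (log2 5.16 ± 0.13). Its 2 h change was thus far above that of H2-K1 (0.19), while at 14 h both lay close together.

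H2-Q6 and H2-Q7, the pair of nearly identical Qa-2 genes, were scarce at rest. H2-Q6 held 1.81 to 4.47 CPM in vehicle and 3.32 to 6.74 CPM with IFN-β at 2 h, overlapping ranges with a log2 difference of 0.88 ± 0.31. H2-Q7 held 4.68 to 6.62 CPM against 6.94 to 8.95 CPM, which did not overlap, with a log2 difference of 0.55 ± 0.17. At 14 h, H2-Q6 went from 1.08, 1.79, 2.10 and 1.90 CPM in vehicle to 87.3, 95.9, 98.0 and 119 CPM with IFN-β, 56.0-fold (log2 5.81 ± 0.15). H2-Q7 went from 2.69, 3.89, 4.33 and 4.84 CPM to 144, 167, 162 and 191 CPM, 40.7-fold (log2 5.35 ± 0.13). Because the pair shares so much sequence, the difference between their folds is uncertain.

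H2-T23, which encodes Qa-1, had the highest 14 h change of the group. It held 1.38, 4.89, 2.38 and 3.30 CPM in vehicle at 2 h and 8.59, 18.4, 12.1 and 7.63 CPM with IFN-β, a log2 change of 1.97 ± 0.40. At 14 h it held 1.61, 1.30, 1.11 and 1.90 CPM in vehicle and 179, 183, 199 and 248 CPM with IFN-β. The 14 h log2 change was 7.07 ± 0.17 or 134-fold, from one of the lowest levels of the group to the fifth highest.

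H2-T22, its neighbour on the chromosome, had the lowest 14 h change. It held 4.89, 6.01, 3.31 and 5.65 CPM in vehicle and 9.85, 19.8, 12.3 and 14.8 CPM with IFN-β at 2 h, a log2 change of 1.503 ± 0.26. At 14 h it held 6.63, 4.49, 4.83 and 8.07 CPM in vehicle and 108, 110, 96.7 and 120 CPM with IFN-β, 18.0-fold (log2 4.17 ± 0.14). Reads of H2-T10 can be counted in this value, as given above.

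H2-M3, which presents formylated peptides, was the least abundant member. It held 1.38, 1.54, 0.662 and 0.826 CPM in vehicle and 2.27, 3.06, 1.95 and 2.82 CPM with IFN-β at 2 h (log2 1.16 ± 0.31). At 14 h the vehicle libraries held 0.538, 0.897, 1.36 and 0.949 CPM and the IFN-β libraries 25.2, 34.9, 35.7 and 36.5 CPM, 34.4-fold (log2 5.10 ± 0.19). Of its 33-base windows, 5.64% occur exactly in another gene, and matches with mismatches were not counted.

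**Figure D1:**
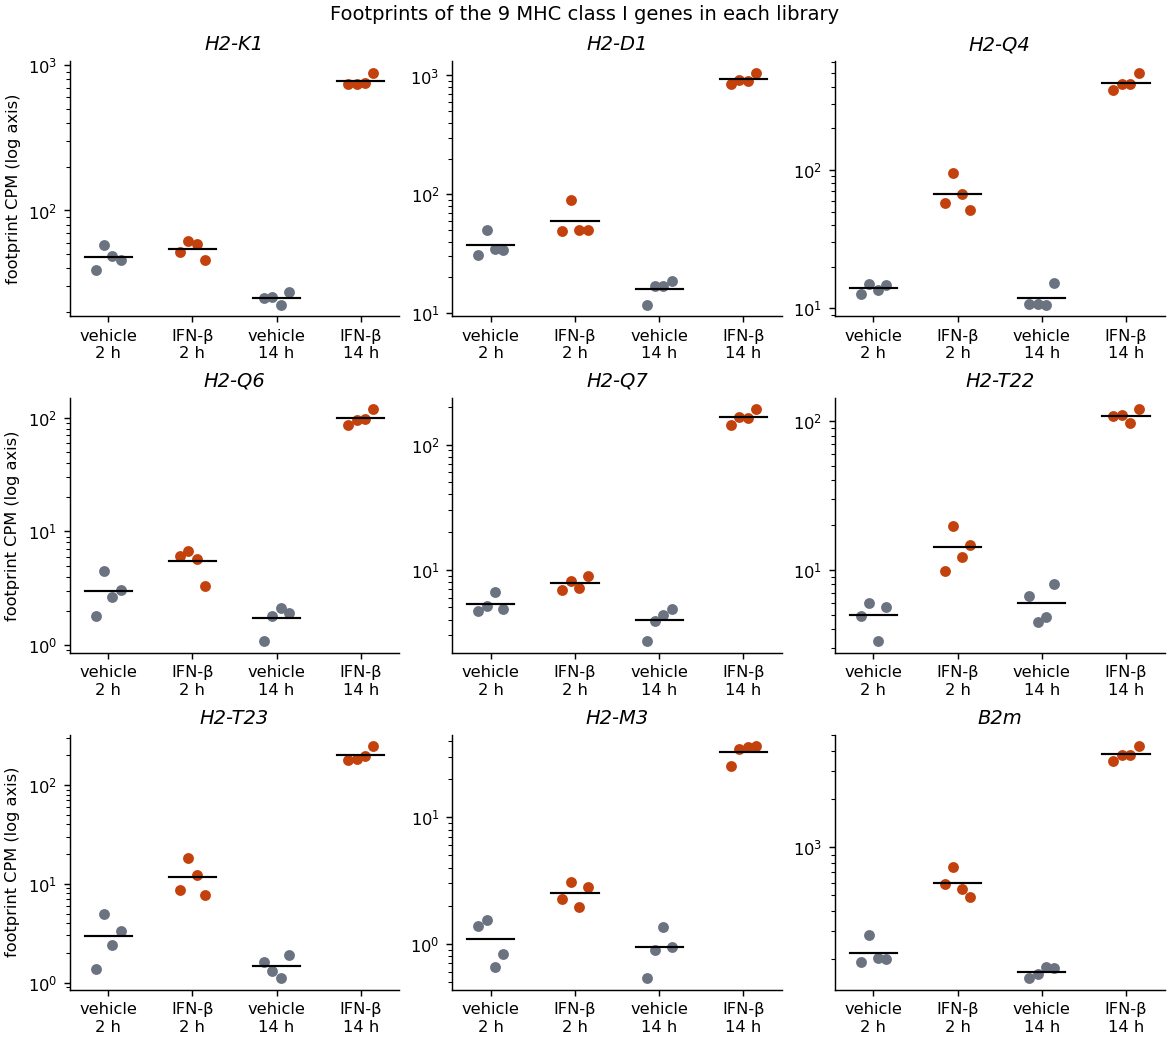
Footprint level of each of the 9 class I genes in every library (CPM, log axis), with vehicle and IFN-β cultures side by side at 2 h and 14 h, 4 cultures a group and a line at each group mean. At 14 h the IFN-β points lie far above the vehicle points for all 9 genes, while at 2 h those of H2-K1, H2-D1 and H2-Q6 overlap.

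All 9 genes had every IFN-β library above every vehicle library in footprints at 14 h, a pattern that 23.4% of the 12113 tested genes showed. At 2 h this held for 6 of 9, all but H2-K1, H2-D1 and H2-Q6, beside 7.68% of 12104 genes. The members were chosen from these contrasts, so nothing is read from the counts. The median log2 change of the 9 was 1.16 at 2 h (−0.02 over all genes tested) and 5.16 at 14 h (0.00 over all genes). The 14 h change exceeded the 2 h change for each member, by 2.69 ± 0.31 (H2-T22) to 5.15 ± 0.29 (H2-D1) on the log2 scale, with a median of 4.77. H2-Q4 (2.90 ± 0.25), B2m (3.08 ± 0.20) and H2-T22 had the lowest differences between the times. H2-D1, H2-T23 (5.10 ± 0.49), H2-Q6 (4.92 ± 0.36), H2-Q7 (4.81 ± 0.22) and H2-K1 (4.77 ± 0.17) had the highest, and H2-M3 lay between them at 3.95 ± 0.40.

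The 4 members with the κB letters GGGATTCCC in the promoter window had the 4 lowest changes at 2 h, from 0.19 (H2-K1) to 0.88 (H2-Q6), and the other 5 had changes of 1.16 to 2.27. At 14 h the 4 genes were at 4.95 to 5.81, within the range of the other 5. Only the exact letters GGGATTCCC were counted. The H2-Q4 stretch printed above holds the near form gggatttccc, which was not counted. H2-Q4 had the highest 2 h change (2.27), so the split depends on the form searched. This is a description of 9 related genes, chosen after their values were seen, and nothing is read from it.

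**Figure D2:**
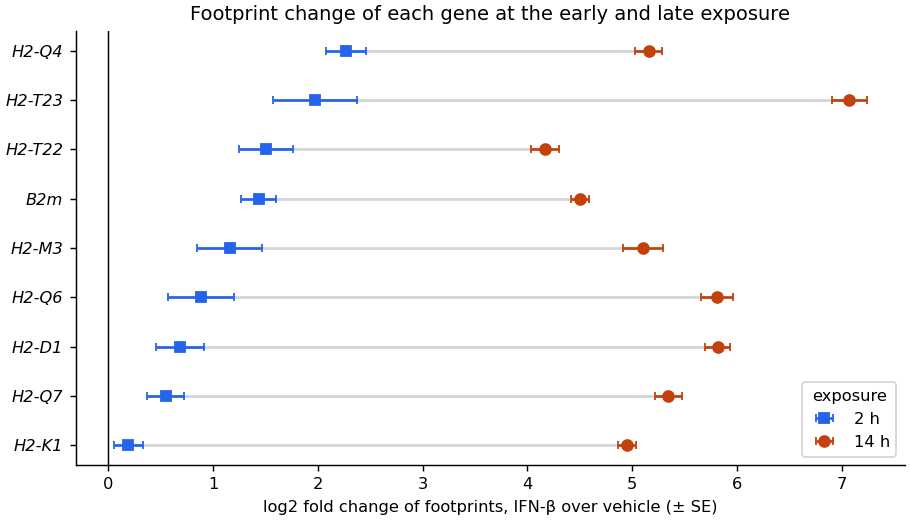
Log2 change of each class I gene with IFN-β in footprints at 2 h and 14 h, with bars of 1 standard error (4 cultures a group). All 14 h points lie at or above 4.17 and all 2 h points at or below 2.27.

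Levels were compared between genes as CPM per kilobase of coding sequence. In vehicle at 2 h the order was B2m (616), H2-K1 (43.1), H2-D1 (34.3), H2-Q4 (13.2), H2-Q7 (5.31), H2-T22 (4.37), H2-Q6 (3.06), H2-T23 (2.79) and H2-M3 (1.09). H2-K1 and H2-D1 overlapped, and so did each neighbouring pair from H2-Q7 downwards. In vehicle at 14 h the order was B2m (468), H2-K1 (22.7), H2-D1 (14.8), H2-Q4 (11.1), H2-T22 (5.28), H2-Q7 (3.93), H2-Q6 (1.76), H2-T23 (1.38) and H2-M3 (0.929). There H2-D1 overlapped H2-Q4, H2-T22 overlapped H2-Q7, and the last 3 genes overlapped in turn.

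With IFN-β for 2 h the order per kilobase was B2m (1665), H2-Q4 (63.6), H2-D1 (55.3), H2-K1 (49.2), H2-T22 (12.5), H2-T23 (10.9), H2-Q7 (7.78), H2-Q6 (5.58) and H2-M3 (2.51). H2-Q4, H2-D1 and H2-K1 were not separated beyond their ranges, nor were H2-T22, H2-T23 and H2-Q7. With IFN-β for 14 h it was B2m (10658), H2-D1 (855), H2-K1 (706), H2-Q4 (405), H2-T23 (189), H2-Q7 (165), H2-Q6 (102), H2-T22 (95.5) and H2-M3 (32.8), where H2-D1 overlapped H2-K1, H2-T23 overlapped H2-Q7 and H2-Q6 overlapped H2-T22. H2-Q4 thus stood level with the classical genes at 2 h of IFN-β and below both of them at 14 h.

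The make-up of the heavy chain footprints moved with this. H2-K1 took 41.1% ± 1.56 (SD, n = 4) of the heavy chain footprints in vehicle at 2 h and 24.8% ± 3.20 with IFN-β. H2-Q4 took 12.2% ± 1.28 and 29.98% ± 1.65. At 14 h, H2-K1 took 37.6% ± 3.22 in vehicle and 28.5% ± 0.692 with IFN-β, H2-D1 23.9% ± 3.08 and 33.8% ± 0.373, and H2-Q4 17.6% ± 1.31 and 15.6% ± 0.362. H2-T23 took 2.20% ± 0.415 in vehicle and 7.33% ± 0.418 with IFN-β, and H2-T22 8.91% ± 1.99 and 3.96% ± 0.309. H2-T22 thus took more than H2-T23 in vehicle at 14 h and less with IFN-β.

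The 8 heavy chains together, summed after the data were seen, held 116.3 ± 20.4 CPM (SD, n = 4) in 2 h vehicle libraries and 224 ± 54.4 CPM in 2 h IFN-β libraries, a ratio of 1.92. Their 14 h sums were 67.1 ± 8.38 and 2749 ± 288 CPM, a ratio of 41.0. A read assigned to the wrong heavy chain of the 8 leaves this sum as it is. B2m per kilobase was 5.46 to 6.09 times the summed heavy chains per kilobase in vehicle at 2 h and 7.53 to 9.28 times with IFN-β. At 14 h it was 6.72 to 8.44 times in vehicle and 4.07 to 4.26 times with IFN-β. The light-to-heavy ratio was thus above every vehicle library at 2 h and below every vehicle library at 14 h. With coding lengths taken as the union of all isoforms, the ranges were 5.70 to 6.36, 7.74 to 9.57, 6.97 to 8.77 and 4.23 to 4.42, in the same order.

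**Figure D3:**
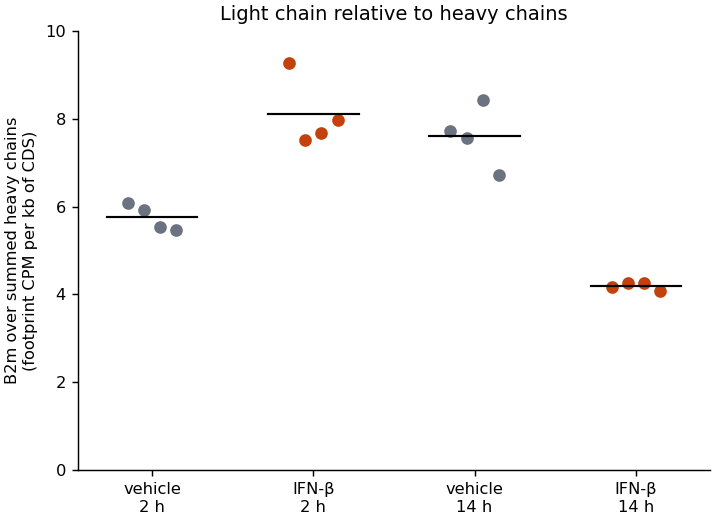
Ratio of B2m to the summed heavy chains in footprints (both per kilobase of coding sequence), one point per library, 4 libraries a group and a line at each group mean. IFN-β libraries lie above the vehicle libraries at 2 h (7.53 to 9.28 against 5.46 to 6.09) and below them at 14 h (4.07 to 4.26 against 6.72 to 8.44).

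Vehicle levels themselves differed between the times. All 14 h vehicle libraries were below all 2 h vehicle libraries for H2-K1 (ratio of means 0.526), H2-D1 (0.431) and B2m (0.759), and overlapped them for the other 6 members. The share of all genes that separated in this way is not given here, so nothing is read from this count. Within replicates 2 and 3, the numbers present at both times, H2-K1 was at 39.0 and 57.6 CPM at 2 h and 25.2 and 22.5 CPM at 14 h, and B2m at 193 and 282 CPM and 162 and 178 CPM. Replicates 5 and 6 were measured at 2 h only and replicates 1 and 4 at 14 h only, and the part of the culture set in these differences was not tested. The members together took 0.0291% to 0.0430% of all footprints in 2 h vehicle libraries and 0.0651% to 0.104% in 2 h IFN-β libraries. Their share was 0.0221% to 0.0255% in 14 h vehicle libraries and 0.598% to 0.737% in 14 h IFN-β libraries.

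Total RNA was the readout that the choice of genes did not use, but its counts over the members were very low. B2m had 2, 5, 1 and 6 counts in vehicle and 15, 27, 13 and 8 with IFN-β at 2 h, and 2, 0, 2 and 1 in vehicle and 7, 4, 14 and 12 with IFN-β at 14 h. In the footprints of the same IFN-β lysates at 14 h, B2m had 10226 to 39816 counts. The 4 lysates summed to 101675 footprint and 37 total RNA counts for B2m, 20791 and 68 for H2-K1, and 24826 and 144 for H2-D1. Library totals in that group were 2956297 to 9401846 for footprints and 1934554 to 2737111 for total RNA, a far smaller gap. H2-K1 had 0, 0, 0 and 3 counts in vehicle at 14 h and 13, 15, 22 and 18 with IFN-β. H2-D1 had 2, 3, 0 and 1 against 27, 42, 32 and 43, and H2-Q4 6, 2, 0 and 2 against 32, 33, 49 and 26. Every IFN-β library was above every vehicle library for these 3 heavy chains.

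At 14 h, 3 of the 9 members passed the filter on low counts in total RNA, and they passed through the IFN-β libraries alone, so the filter itself favoured a higher value and their count is no support. H2-D1 had a log2 change of 4.08 ± 0.48 (adjusted p = 3.63e-05), H2-K1 of 3.89 ± 0.63 (adjusted p = 9.11e-04) and H2-Q4 of 3.32 ± 0.40 (adjusted p = 4.40e-05) by the quasi-likelihood test of edgeR, Benjamini-Hochberg adjusted over all tested genes. In that test 3.47% of 7520 genes were called higher. The fit without the filter, which held all 9 members, called 6 of them higher, beside 1.67% of 23371 genes. In it H2-D1 was at 4.11 (adjusted p = 1.11e-16), H2-K1 at 3.93 (adjusted p = 6.86e-08) and H2-Q4 at 3.35 (adjusted p = 4.39e-13). The added calls were H2-T23 (2.75, adjusted p = 0.0169), H2-Q7 (2.42, adjusted p = 0.0119) and B2m (2.36, adjusted p = 0.0163). H2-M3, H2-Q6 and H2-T22 were not called, with values of 3.33, 1.45 and 1.31 and adjusted p of 0.416, 0.356 and 0.275.

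At 2 h, H2-Q4 was the only one of 3 tested members called higher in total RNA, with a log2 change of 2.39 ± 0.38 (adjusted p = 0.0101) by the same edgeR test, beside 0.722% of 11639 genes. The call was lost with the replicate number as a block (2.40 ± 0.41, adjusted p = 0.0536). It had 3, 6, 2 and 5 counts in vehicle and 33, 20, 17 and 23 with IFN-β, and was the member with the highest footprint change at that time. H2-T22 had a value of 1.76 ± 0.41 (adjusted p = 0.0975) and H2-D1 of 1.48 ± 0.41 (adjusted p = 0.198). H2-Q4 and H2-D1 had passed the filter through the IFN-β libraries alone, which favours a higher value, while H2-T22 had 13, 16, 5 and 30 counts in vehicle and 63, 109, 31 and 34 with IFN-β. Without the filter, H2-Q4 (2.37, adjusted p = 0.00331) and H2-T22 (1.74, adjusted p = 0.0135) were called by edgeR, beside 0.589% of 25451 genes. B2m was at 1.98 (adjusted p = 0.0769) in that fit.

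All IFN-β libraries were above all vehicle libraries in total RNA for 5 members at 14 h (H2-K1, H2-D1, H2-Q4, H2-Q7 and H2-T23), beside 7.3% of tested genes. At 2 h this held for 4 (H2-D1, H2-Q4, H2-T22 and B2m), beside 2.58% of tested genes. Both shares cover only genes that passed the filter on low counts. H2-Q7 and H2-T23 at 14 h and B2m at 2 h did not pass it, so the counts and shares are not alike. Ratios of summed counts show how little the RNA limits the size of the changes. At 14 h the ratio was 18.0 for H2-D1 (95% interval 8.05 to 49.8), 17.0 for H2-K1 (5.56 to 84.3, on 3 vehicle counts), 10.5 for H2-Q4 (5.53 to 22.3) and 5.54 for B2m (2.17 to 18.1). It was 7.48 for H2-T23 (2.33 to 38.3, on 3 vehicle counts), and H2-M3 had 5 counts with IFN-β and 0 in vehicle, for a ratio whose 95% interval begins at 0.686 and so includes no change. These intervals cover counting error only.

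The change in footprints beyond that in total RNA, the translational efficiency (TE), is a description here, since the footprints chose the genes. Among members with vehicle RNA counts, the 14 h TE log2 change was lowest for H2-K1 (0.91 ± 0.95). It was highest for H2-T23 (4.20 ± 1.35) and H2-Q6 (4.33 ± 0.89). H2-M3 had 0 vehicle RNA counts at 14 h, so its fitted value (0.29 ± 0.66) is not ranked and its error is not a usable one. The median of the 9, H2-M3 included, was 2.07, against 0.02 over all genes. At 2 h the TE changes ran from −0.96 (H2-K1) to 1.22 (H2-Q7), with a median of −0.20. With 0 to 6 counts in each vehicle RNA library at 14 h, these values carry the weakness of the RNA counts.

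Genes annotated on the opposite strand over 4 members held far more total RNA counts than the members themselves. B2m lies inside the span of Patl2 (chr2:122120108-122186189, minus strand), which encodes an RNA-binding protein of oocytes, and shares 0 exonic bases with it. Gm11131 (chr17:35377021-35380292, minus strand), an antisense transcript, shares 496 of the 2596 exonic bases of H2-Q4. The antisense A930015D03Rik (chr17:35994453-36038435, plus strand) shares 1003 of the 3414 exonic bases of H2-T22 and spans H2-T23 without sharing exonic bases. No opposite-strand gene is annotated over the other 5 members. These genes were looked up after the data were seen.

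Patl2 had 1461, 866, 254 and 768 total RNA counts in vehicle at 14 h and 31415, 30628, 21953 and 13132 with IFN-β. Over the 4 libraries of a group it summed to 3349 in vehicle and 97128 with IFN-β, where B2m summed to 5 and 37. In the footprint tables, Patl2 had 1 count in all 16 libraries. Its total RNA log2 change at 14 h was 4.42 ± 0.30 (adjusted p = 4.39e-08), beside the footprint change of 4.50 ± 0.08 of B2m. At 2 h Patl2 went from 2434, 3276, 1629 and 3275 counts to 7638, 18604, 8858 and 5867, a log2 change of 1.78 ± 0.35 (adjusted p = 0.0382, edgeR's quasi-likelihood test). That 2 h call was lost without any 1 of the vehicle libraries, without the IFN-β library of replicate 2, 5 or 6, with scaling by total counts, and with the replicate number as a block (1.68, adjusted p = 0.101). The adjusted p was up to 0.139 over the libraries left out.

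Gm11131 had 53, 21, 15 and 41 counts in vehicle at 14 h and 2032, 2104, 1763 and 1260 with IFN-β, a log2 change of 5.30 ± 0.27 (adjusted p = 2.16e-09). At 2 h it went from 112, 117, 77 and 105 counts to 503, 834, 643 and 420, a log2 change of 2.35 ± 0.27 (adjusted p = 7.36e-04). The footprint changes of H2-Q4, which it overlaps, were 5.16 and 2.27 at those times. A930015D03Rik had 92, 47, 26 and 67 counts in vehicle at 14 h and 5271, 4946, 5600 and 3223 with IFN-β, a log2 change of 5.85 ± 0.26 (adjusted p = 4.84e-10). At 2 h its log2 change was 1.95 ± 0.25 (adjusted p = 0.00179), beside footprint changes of 1.503 for H2-T22 and 1.97 for H2-T23. The total RNA kit keeps the strand of the RNA, and the strand setting used in counting is not given in the sources used here. Whether reads of the members were counted on these genes was not tested, and a strand setting, where it matters, acts on every gene, those without an annotated opposite-strand gene included. The total RNA and TE values of all 9 members, H2-K1 and H2-D1 among them, therefore hold only for the counts as deposited.

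**Figure D4:**
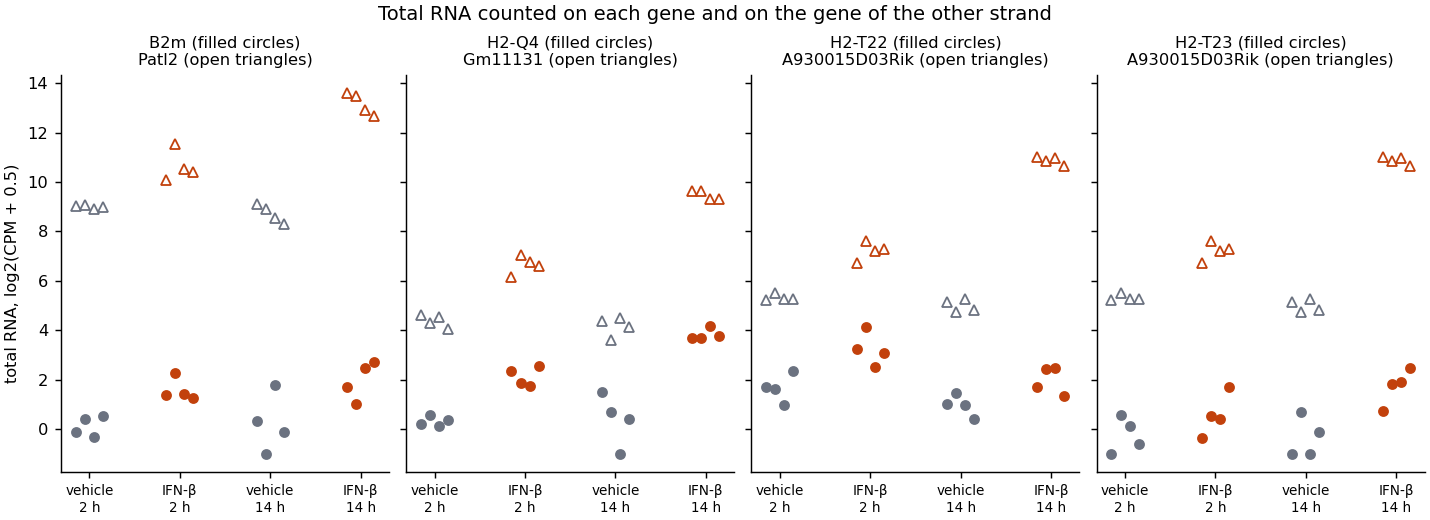
Total RNA level, as log2 of CPM plus a pseudocount of 0.5, of B2m, H2-Q4, H2-T22 and H2-T23 (filled circles) beside that of the gene annotated on the opposite strand (open triangles), one point per library. Patl2, Gm11131 and A930015D03Rik lie above the class I genes they span or overlap in every library and are higher with IFN-β at both times.

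The other genes of the class I pathway were followed from 6 lists with 53 genes in all, none of them members, and tested in footprints. At 14 h 26.2% of the 12113 tested genes were called higher and 26.3% lower, and at 2 h 5.25% of 12104 were called higher and 2.01% lower. The lists are read against these shares, which come from fits without the replicate number as a block. The share of all genes called with the block is not given here. Counts called with the block, at either time or between the times, are therefore not read against any share. The adjusted p-values come from the same edgeR test, adjusted over all genes tested in footprints. Genes with few vehicle footprints passed the filter on low counts through the IFN-β libraries, which favours a higher value. Calls of such genes as higher are therefore no support.

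Of the 8 genes of peptide transport and loading, 7 rose at 14 h and none fell, with a median log2 change of 3.30. At 2 h 4 rose, with a median of 0.66. Tap1, a subunit of the peptide transporter, rose by 3.33 ± 0.23 at 2 h (adjusted p = 2.24e-05) and 4.62 ± 0.13 at 14 h (adjusted p = 4.18e-12). Tap2, its partner, rose by 2.12 ± 0.22 (adjusted p = 3.54e-04) and 4.23 ± 0.11 (adjusted p = 2.06e-12). Tapbp, which bridges the transporter and the empty heavy chain, had a 2 h value of 0.68 ± 0.26 (adjusted p = 0.204). It passed with the replicate number as a block (adjusted p = 2.94e-08) and also without vehicle replicate 3, at 0.96. At 14 h Tapbp rose by 3.83 ± 0.08 (adjusted p = 2.29e-13). Tapbpl, a second peptide editor, rose by 2.16 ± 0.22 (adjusted p = 2.44e-04) and 3.45 ± 0.15 (adjusted p = 4.70e-10). The transporter was thus higher at 2 h, when H2-K1 and H2-D1 were at 1.14-fold and 1.61-fold. Other members had larger 2 h changes, up to 3.93-fold for H2-T23 and 4.83-fold for H2-Q4, beside 4.34-fold for Tap2.

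Of the 6 genes of the immunoproteasome and its activator, 5 rose at each time, with medians of 1.59 at 2 h and 3.56 at 14 h. The exception, the assembly factor Pomp, passed at 2 h with the replicate number as a block (0.16, adjusted p = 0.0142). Psmb8, a catalytic subunit, rose by 4.51 ± 0.38 at 2 h (adjusted p = 7.03e-05) and 9.08 ± 0.13 at 14 h (adjusted p = 1.51e-14), more than any member. Its vehicle libraries at 14 h held 4 to 6 counts, so there it passed the filter through the IFN-β libraries alone. Psmb9, another catalytic subunit, rose by 3.53 ± 0.28 (adjusted p = 5.23e-05) and 6.18 ± 0.14 (adjusted p = 7.33e-13). Psmb10, the last of the 3, rose by 2.13 ± 0.15 (adjusted p = 2.24e-05) and 3.85 ± 0.08 (adjusted p = 4.09e-13). The constitutive subunits that they replace had small values. At 14 h Psmb5 was at 0.07 ± 0.06, Psmb6 at 0.17 ± 0.06 and Psmb7 at 0.12 ± 0.05. Of these only Psmb6 passed the test (adjusted p = 0.0336). That call was lost without the filter (0.16) and without vehicle replicate 1 (0.13) or IFN-β replicate 2, 3 or 4 (0.16 to 0.17). Psmb7 passed the test with the replicate number as a block (adjusted p = 0.00566) and without IFN-β replicate 1 (0.15). None of the 3 passed at 2 h.

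The 12 regulators of class I genes divided, with 5 higher and 3 lower at 14 h and 5 higher and none lower at 2 h. Their medians were 0.31 at 2 h and 0.02 at 14 h. With the replicate number as a block, 5 were higher and 4 lower at 14 h, with Nfkb1 added (−0.18, adjusted p = 0.0196). At 2 h 6 were higher and 1 lower with the block, with Nfyb higher (0.53, adjusted p = 1.95e-04) and Rfxank lower (−0.36, adjusted p = 0.0217). Nlrc5, the transactivator of class I genes, rose by 4.44 ± 0.32 at 2 h (adjusted p = 2.43e-05) and 7.89 ± 0.18 at 14 h (adjusted p = 4.49e-13). Its mean level went from 0.571 to 13.2 CPM at 2 h and from 0.305 to 80.5 CPM at 14 h. Nlrc5 had 2 to 10 counts in vehicle libraries at 2 h and 1 to 6 at 14 h, so it passed the filter through the IFN-β libraries. Irf1, an early interferon-response factor, rose by 3.59 ± 0.08 at 2 h (adjusted p = 5.94e-08) and by 2.77 ± 0.13 at 14 h (adjusted p = 1.51e-09). Irf2, a related factor that binds the same element, rose by 1.47 ± 0.15 at 2 h (adjusted p = 3.24e-04) and 0.74 ± 0.07 at 14 h (adjusted p = 1.61e-06).

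The difference between the times was tested for these genes, with 15.4% of 12508 genes called higher at 14 h and 15.5% lower. Irf1 had a smaller change at 14 h than at 2 h (−0.81 ± 0.16, adjusted p = 0.00107), and Nlrc5 a greater one (3.47 ± 0.55, adjusted p = 2.03e-04). Among regulators 3 had a greater and 6 a smaller change at 14 h, or 3 and 7 with the block. Of the transport and loading genes 7 of 8 had a greater change at 14 h, and of the immunoproteasome list 5 of 6. The 9 members had greater values at 14 h than at 2 h as well, by the choice of the genes.

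**Figure D5:**
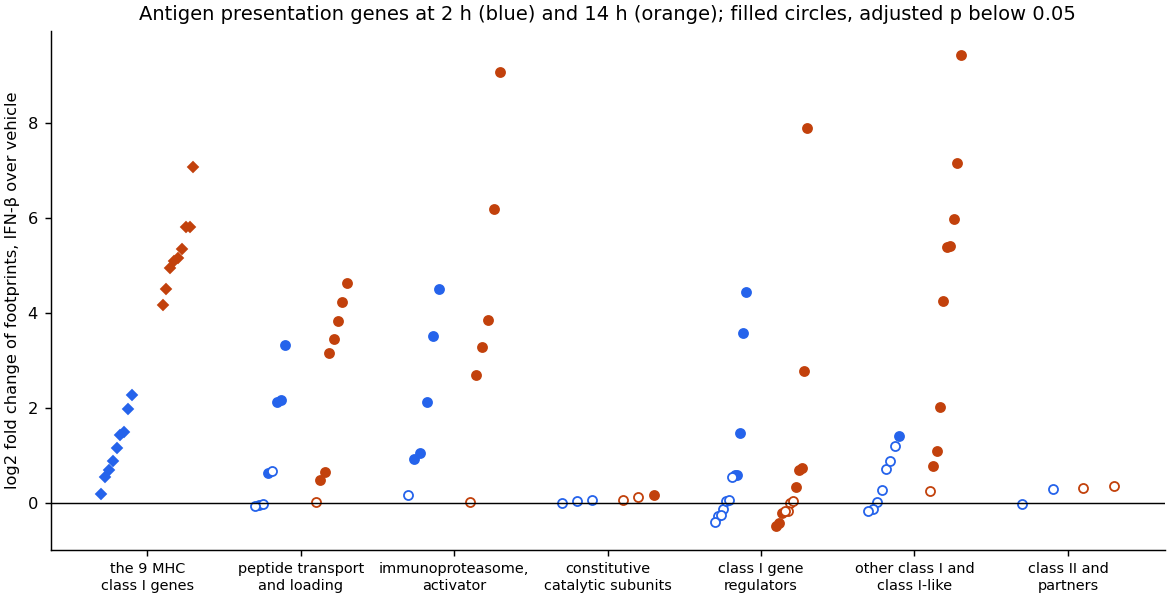
Log2 change in footprints with IFN-β for each tested gene of the lists at 2 h (blue) and 14 h (orange), one point per gene, with filled circles for genes that passed edgeR's test and open circles for those that did not. Diamonds are the 9 class I genes, which were not tested, and the points of H2-T24 and H2-T3 at 14 h are fitted values without vehicle counts. Psmb8 and Nlrc5 reach 9.08 and 7.89 at 14 h, while the constitutive proteasome subunits stay between 0.07 and 0.17.

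Of 14 other class I and class I-like genes, 10 could be tested at 14 h and 9 of them rose. The median log2 change was 4.82, or 4.50 with the 2 genes without vehicle counts at their bound. The tenth, Cd1d1, passed with the replicate number as a block (0.23, adjusted p = 0.00997). H2-T24 and H2-T3, the 2 without vehicle counts, passed the filter on low counts through the IFN-β libraries alone. Not every vehicle library of H2-Q1, H2-Q2 and H2-Q10 reached 10 counts at 14 h. For such genes the filter favoured a higher value, so the count of genes that rose is no support. At 2 h 8 could be tested and 1 rose, H2-T10 (1.42 ± 0.24, adjusted p = 0.00596). H2-Q1 was at 0.72 ± 0.31, H2-Q2 at 1.21 ± 0.32 and H2-Q10 at 0.88 ± 0.25 at 2 h (adjusted p = 0.274, 0.0566 and 0.0754). With the replicate number as a block all 3 passed (adjusted p = 0.0402, 1.80e-04 and 0.00182), for 4 called in the list. H2-Q2 and H2-Q10 also passed without vehicle replicate 3 (1.36 and 1.05). At 14 h H2-Q1 rose by 5.98 ± 0.17, H2-Q2 by 5.38 ± 0.15, H2-Q10 by 5.40 ± 0.15 and H2-T10 by 4.25 ± 0.11. H2-T24 had 300 counts with IFN-β and 0 in vehicle at 14 h, at least 131-fold higher with the vehicle sum set to 3 counts, and H2-T3 had 61 and 0, at least 26.7-fold higher in the same way. Several of these genes share coding windows with the members, so their footprints are not fully separate from the members' own.

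Of 10 MHC class II genes and their partners, only 2 had enough footprints to be tested, and neither passed the test at any time. At 14 h H2-DMa was at 0.36 (adjusted p = 0.136) and H2-Ab1 at 0.32 (adjusted p = 0.437) on the log2 scale. H2-DMa passed without IFN-β replicate 4 (0.52). The class I genes and their loading pathway stood beside a class II list of which 8 genes had too few footprints to test.

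Among 12499 genes compared over the 16 footprint libraries, those whose log2 level followed the median of the 9 members most closely were C1ra (Pearson r = 0.994), a complement protease, then Phf11b (0.992), Oas1a (0.991), an antiviral oligoadenylate synthetase, Shisa5 (0.990) and H2-T24 (0.988). The members themselves correlated with their median at 0.967 (H2-Q4) to 0.990 (H2-T22). The points share libraries and fall into treatment and time groups, so these are descriptions. Shisa5 changed by 1.01 at 2 h and 3.25 at 14 h on the log2 scale.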

How the data were processed

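Per the labels and the study's methods, the authors trimmed reads with Trim Galore 0.4.4, aligned them with Bowtie 0.12.7 at its standard options to the mouse transcriptome (mm10/GRCm38), removed duplicates and counted reads with SummarizeOverlaps in Union mode. The deposited values are raw counts per gene, footprints over CDS and total RNA over the gene body. Ensembl identifiers were named through GENCODE M21 (22282 of 23035 footprint and 37693 of 39017 total RNA genes). CPM is a gene's count scaled to a library total of 1000000 after TMM adjustment of that total. Each contrast was fitted with edgeR 4.0.16 (R 4.3.3; TMM scaling, quasi-likelihood test) on genes that reached 10 counts in 4 or more libraries, with calls at a Benjamini-Hochberg adjusted p under 0.05. DESeq2 1.42.0, total-count scaling, no filter, a stricter filter, the replicate number as a block and leaving out each library were alternatives. Each SE of an edgeR value was derived as the absolute log2 change divided by the square root of the test's F statistic. Such an SE is weak where a group has few or no counts. The procedure was tested on simulated data. Sequences were read with Python 3.11.15.

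Same-numbered vehicle and IFN-β footprint libraries deviated together (r from 0.20 to 0.82, every library best with its own number). Within a time the number was therefore used as a block. The labels do not say what it marks, so a shared culture and shared handling cannot be told apart. The main fits did not use this pairing. The fit with the number as a block is an alternative, and it changed calls, among them that of Tapbp at 2 h. The 9 members and the pathway and marker lists were chosen with earlier results of these data known. Named genes were the 9 members, the 3 largest changes of each list at 14 h and at 2 h, Nlrc5, Irf1, Tap1, Tap2, Tapbp, Psmb8 and Psmb9, and the 5 genes most like the members. 1 gene of the regulator list is not reported here and was left out of its counts. The GAANNGAAA form, the heavy chain sum and the opposite-strand genes were added after the data were seen.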

Additional observations from a re-analysis of the deposited data

Results flagged for a closer look

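A library stood apart from the other 3 of its group in 9 of the 72 groups formed by the 9 members. Chance flags about 1 in 20 groups. In footprints these were H2-K1 at 888 CPM in the IFN-β library of replicate 4 at 14 h, H2-D1 at 90.1 CPM in the IFN-β library of replicate 3 at 2 h, H2-Q4 at 15.3 CPM in the vehicle library of replicate 4 at 14 h, H2-M3 at 25.2 CPM in the IFN-β library of replicate 1 at 14 h and B2m at 282 CPM in the vehicle library of replicate 3 at 2 h. In total RNA they were H2-K1 at 1.25 CPM in the vehicle library of replicate 4 at 14 h, H2-Q4 at 17.5 CPM in the IFN-β library of replicate 3 at 14 h, H2-M3 at 0.162 CPM in the vehicle library of replicate 3 at 2 h and B2m at 4.28 CPM in the IFN-β library of replicate 3 at 2 h. The H2-K1 and H2-M3 total RNA values rest on 3 counts and 1 count.

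The footprint change at 14 h differed from that at 2 h, by edgeR's test of the difference, for 15 named pathway genes. Of all 12508 genes tested, 15.4% were called higher at 14 h and 15.5% lower. Most named genes were chosen for large changes in these same libraries, so their count is no support. The differences (14 h minus 2 h, log2) were 3.47 for Nlrc5, −0.81 for Irf1, −0.72 for Irf2, 1.31 for Tap1, 2.12 for Tap2, 3.16 for Tapbp and 1.29 for Tapbpl. They were 4.57 for Psmb8, 2.68 for Psmb9 and 1.73 for Psmb10, and 5.28 for H2-Q1, 4.19 for H2-Q2, 4.54 for H2-Q10 and 2.86 for H2-T10. H2-T3 had a fitted difference of 6.93 with no vehicle counts at 14 h, so the size is no bound, and the call was lost without the vehicle library of replicate 2 or 3 at 2 h.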

How the results depend on the processing

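Low counts limited the total RNA results. The number of members called higher in total RNA at 14 h was 3, and 6 without the filter on low counts. At 2 h it was 1, against 2 with total-count scaling, 2 with DESeq2, 2 without the filter and 0 with the replicate number as a block. Total RNA came from the lysates of the footprints, but same-numbered total RNA libraries did not deviate together throughout (correlations from −0.48 to 0.39, 3 of 4 numbers best with their own at 14 h and 0 of 4 at 2 h), so the blocked values are an alternative there. No member had a mean of at least 50 total RNA counts, so that filter gave no value. DESeq2 gave no adjusted p for H2-K1 at 14 h. The members' median change in TE after 14 h was 2.07 by edgeR and 2.80 by DESeq2. In paired footprints the block also added Psmb6 for the difference between the times (0.18, adjusted p = 0.0104). No result changed direction under any alternative run. Leaving out single libraries kept every count of members called and every median of the members within 1.5 times its value or the replicate spread, while among single genes it changed the calls of Psmb6 and Psmb7 at 14 h, Tapbp, H2-Q2, H2-Q10 and Patl2 at 2 h, H2-DMa at 14 h (0.52 without IFN-β replicate 4) and H2-T3 between the times.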
